A study of Mus musculus with 21 samples.

Results

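The line difference between mouse embryonic fibroblasts (MEFs) that express GCN5 and MEFs that express LacZ was described under knockdown of Hsf1, across all genes of the deposited count table. The members were chosen by their labels: 3 RNA libraries of GCN5 MEFs given siRNA against Hsf1 (siHsf1 GCN5) and 3 of LacZ MEFs given the same siRNA (siHsf1 LacZ), which makes 6 of the 21 samples of the series. The cells were immortalized MEFs with stable expression of V5-tagged GCN5 or, as the control protein, LacZ. They were transfected for 2 days with siRNA at 10 nM. All 6 libraries carry the Hsf1 knockdown, so the comparison is between the lines and not between knockdown and control. The 6 libraries of the same lines under a control siRNA, 3 of siControl GCN5 and 3 of siControl LacZ, served to show the line difference without the knockdown. The series asks how HSF1 acts on transcription by c-MYC, and it also holds maps of c-MYC binding, of which the peak list from MEFs with intact Hsf1 was used here. Those MEFs had been kept in ethanol for 7 days, as the control of an Hsf1 deletion by 4-OHT. Nothing in the labels or files gives the species of the GCN5 construct, the promoter that drives it, or whether each line is 1 clone. The labels speak of triplicates without saying that these were separate cultures, so the p-values measure the spread between libraries as labelled.

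GCN5, the product of Kat2a, is a lysine acetyltransferase that acetylates histone H3 as a subunit of the SAGA and ATAC coactivator complexes, and c-MYC recruits such complexes to its targets. HSF1 is the transcription factor that induces cytosolic and mitochondrial chaperones after proteotoxic stress. Type I interferon signalling is a defence programme of fibroblasts: sensors of foreign or misplaced nucleic acid switch on interferon, the receptor activates a transcription factor complex that includes STAT2 and IRF9, and this complex binds interferon-stimulated response elements in the promoters of antiviral genes. USP18, itself a product of such a gene, removes ISG15 from proteins and dampens signalling from the interferon receptor.

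Gene counts summed to 3.96 to 4.27 M (mega counts) in the siHsf1 GCN5 libraries and 7.22 to 8.16 M in the siHsf1 LacZ libraries, so depth and line coincide. The ERCC subgroup B, spike-in RNA supplied in equal amounts by mix 1 and mix 2, took 0.229%, 0.232% and 0.286% of the counts in siHsf1 GCN5 libraries and 0.177%, 0.356% and 0.248% in siHsf1 LacZ libraries. Their mean share in siHsf1 GCN5 was 0.957 of that in siHsf1 LacZ (exact permutation test, two-sided, p = 0.8, where the smallest possible p is 0.1). The spread of these shares within the LacZ group enters every fold change that is scaled by them. Values below are therefore scaled by TMM, a method resting on the premise of a largely unchanged transcriptome, and counts with spike-in scaling are given beside those of the lists. Spike-in scaling below means subgroup B unless all 92 ERCC transcripts are named. Fibroblast markers such as Col1a1 and Vim summed to 5628 to 5880 CPM (counts per M counts) in siHsf1 GCN5 and 6312 to 7031 CPM in siHsf1 LacZ libraries. They did not move together: Col1a1 and Col3a1 were higher, Col1a2, Pdgfra, Pdgfrb, Vim and S100a4 lower, and Thy1 and Fap stayed under 1 CPM in the siHsf1 libraries. Neural markers summed to 490 to 513 CPM in siHsf1 GCN5 and 394 to 448 CPM in siHsf1 LacZ libraries, with Tubb3, Nes and Map2 called higher and Sox10 at 0 in all 12 libraries. The part of these markers in the results was not tested. Endothelial and pluripotency markers stayed under 2 CPM in sum in all 12 libraries.

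Hsf1, the target of the siRNA, had 67.9, 74.5 and 73.0 CPM in siHsf1 GCN5 libraries, against 57.6, 55.4 and 47.8 CPM in siHsf1 LacZ libraries. The mean was 54.4% of the siControl mean in the GCN5 line and 41.2% in the LacZ line. The gene (chromosome 15, 76477367 to 76500982, plus strand, GRCm38) was thus below its siControl level in both lines, and it was higher in the siHsf1 GCN5 libraries by 0.42 ± 0.08 on the log2 scale (SE; edgeR adjusted p = 0.000191). That difference was not called with spike-in scaling (edgeR adjusted p = 0.713). The part of this unequal Hsf1 level in the results below was not tested. Among its relatives, Hsf4 was lower (log2 fold change -0.41 ± 0.13, SE; edgeR adjusted p = 0.0110 by TMM and 0.592 by spike-in scaling). Hsf4 was not called without siHsf1 LacZ replicate 2 (-0.32; edgeR adjusted p = 0.0657) or without siHsf1 GCN5 replicate 1 (-0.29; edgeR adjusted p = 0.0988). Hsf2 (-0.07) and Hsbp1 (-0.16), which codes for an HSF1-binding protein, were not called. Hsf5 had 1 count in all 12 libraries and Hsf3 had 0.

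Kat2a (chromosome 11, 100704746 to 100712478, minus strand) had 247, 252 and 244 CPM in siHsf1 GCN5 libraries, against 125, 117 and 130 CPM in siHsf1 LacZ libraries. The groups did not overlap, and the log2 fold change was 1.00 ± 0.06 (SE; edgeR adjusted p = 3.55e-12 by TMM and 0.0667 by spike-in scaling). Under the control siRNA the gene had 262, 233 and 245 CPM in GCN5 and 215, 215 and 220 CPM in LacZ libraries, a difference of 0.19 on the log2 scale that was not called (edgeR adjusted p = 0.0506). The GCN5 line thus held 100% of its siControl mean under siHsf1, and the LacZ line 57.1%. Whether reads of the construct are counted as Kat2a depends on its species and parts, so Kat2a counts do not check the line labels. Myc had 158, 144 and 139 CPM in siHsf1 GCN5 and 99.4, 89.4 and 88.1 CPM in siHsf1 LacZ libraries, which is higher in each GCN5 library (log2 fold change 0.67 ± 0.08, SE; edgeR adjusted p = 1.91e-07 by TMM and 0.382 by spike-in scaling).

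**Figure D1:**
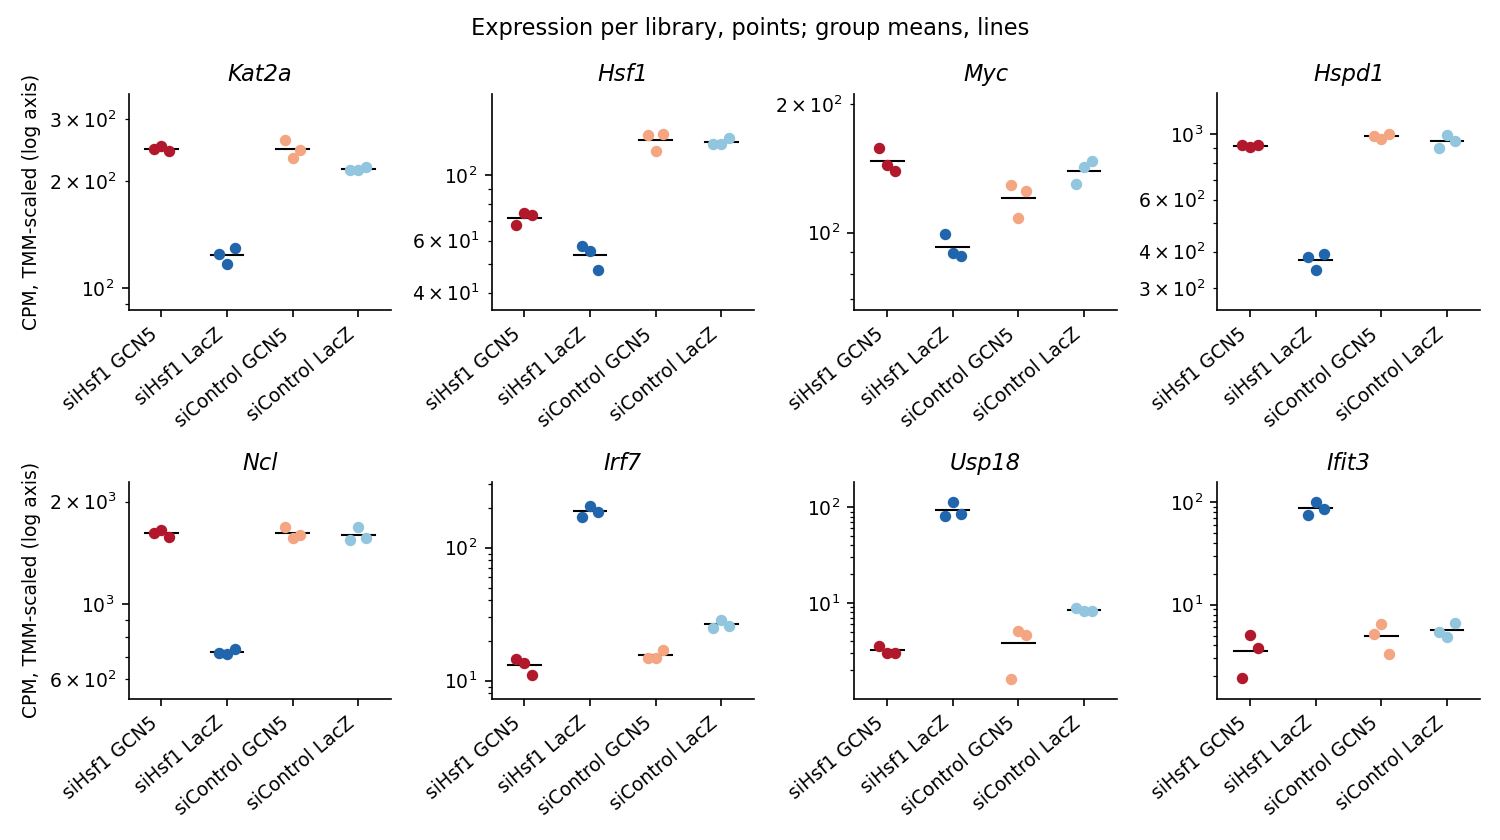
Expression of 8 genes in each library of the 4 groups, in TMM-scaled CPM on log axes; points are libraries and lines are group means (n = 3). Hspd1 and Ncl stand at 902 to 918 and 1578 to 1647 CPM in siHsf1 GCN5 libraries, against 347 to 391 and 715 to 739 CPM in siHsf1 LacZ libraries, while Irf7, Usp18 and Ifit3 are highest in the siHsf1 LacZ libraries.

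Across the transcriptome the lines differed widely under siHsf1. Of 12187 genes tested, 5464 were called (44.8%) by edgeR's quasi-likelihood test at an adjusted p under 0.05: 2711 were higher (22.2%) and 2753 lower (22.6%) in siHsf1 GCN5. Of these, 2164 differed by 1.5-fold or more and 847 by 2-fold or more. In 6743 genes (55.3%) the 3 libraries of one group all lay above the 3 of the other. With spike-in scaling the common biological coefficient of variation was 0.274, against 0.0890 with TMM, and 222 genes were called higher (1.82%) and 441 lower (3.62%). Of these, 646 were also called with TMM in the same direction, and the share of called genes that were higher was 33.5%, against 49.6% with TMM. The median over all tested genes was -0.01 with TMM and -0.07 with spike-in scaling. Below, rose and fell mean higher and lower in the GCN5 line than in the LacZ line under the same siRNA. They do not mean a change from siControl. Every list count below stands beside 22.2% higher and 22.6% lower over all tested genes under siHsf1. Under siControl those shares were 5.46% and 4.15%.

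**Figure D2:**
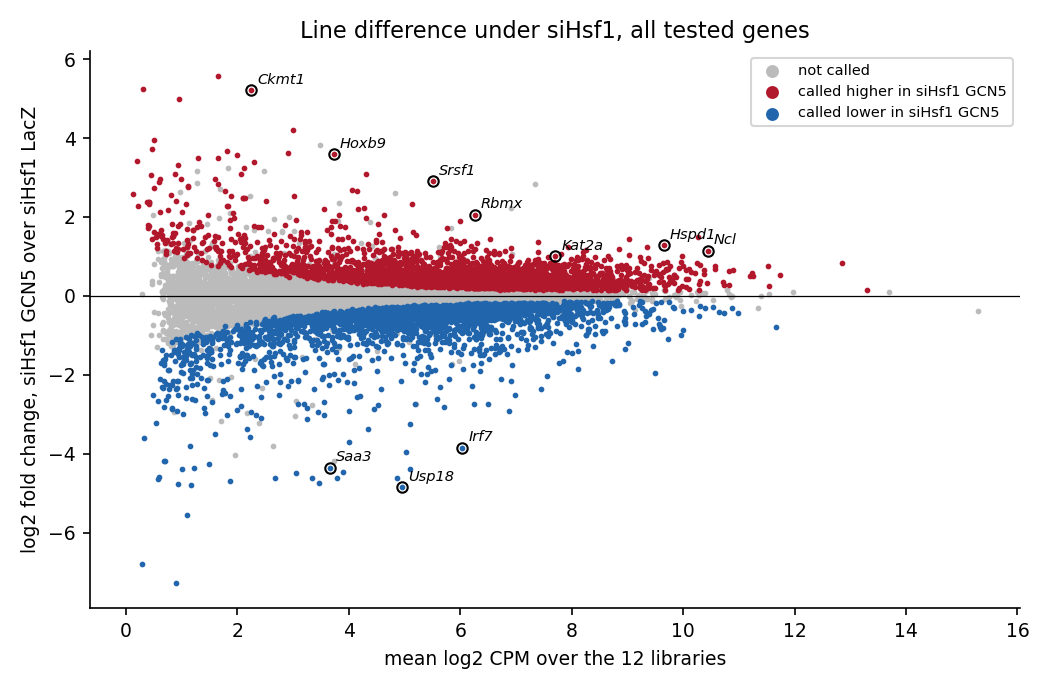
Log2 fold change of siHsf1 GCN5 over siHsf1 LacZ against mean log2 CPM over 12 libraries for the 12187 tested genes; red points were called higher (2711), blue points lower (2753) and grey points were not called. Usp18, Irf7 and Saa3 lie at log2 fold changes of -3.84 or below, while Hspd1, Ncl and Kat2a lie at 1.29, 1.15 and 1.00.

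The interferon programme had the lowest median of the 28 gene lists. Of its 55 members 48 were tested, 45 were lower in siHsf1 GCN5 and none was higher, with 3 not called (H2-D1 and Tapbp among them). The median log2 fold change was -2.59, beside -0.01 over all tested genes. Of the 48 tested members, 43 would have passed the filter on low counts without the siHsf1 LacZ libraries, and the other 5 passed through that group. With spike-in scaling 40 members were called lower. Under the control siRNA 14 members were lower in the GCN5 line, with a median of -0.35. The difference between the line effects was itself called for 43 members, all negative, beside 22.0% of all tested genes in either direction. In bulk RNA, fewer cells that express a programme and less RNA per cell cannot be told apart.

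The list is shown with a stretch of promoter from 3 of its members, since the element that the STAT2 and IRF9 complex recognises can be read in them. The sequences are from RefSeq promoter windows of 300 bases (GRCm38.p6), with each match to the response element motif in capitals. The motif was searched on both strands as GAAA, any 2 bases and GAAA, and matches may overlap each other.
Ifit3, chr19:34583333-34583456, plus strand: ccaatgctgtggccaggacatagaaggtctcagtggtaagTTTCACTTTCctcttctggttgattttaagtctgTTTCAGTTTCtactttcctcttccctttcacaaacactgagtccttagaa
Ifit1, chr19:34640745-34640853, plus strand: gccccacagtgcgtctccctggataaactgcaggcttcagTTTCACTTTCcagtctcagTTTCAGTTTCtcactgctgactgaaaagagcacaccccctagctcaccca
Oas3, chr5:120777685-120777774, minus strand: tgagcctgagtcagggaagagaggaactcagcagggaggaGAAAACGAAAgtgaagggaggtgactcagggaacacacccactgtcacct
Ifit3 and Ifit1 each held 2 matches and Oas3 held 1. The motif was found in 19 of 36 tested interferon genes with a window. It was found in 338 of 9232 tested genes with a window (3.66%) and in 3.44% of all 32851 windows. Since 36 of 48 interferon genes and 9232 of 12187 tested genes had a window, too few for a check over either set, that check is void and the counts describe the genes with a window only.

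Usp18, which removes ISG15 and restrains the interferon receptor, lies on chromosome 6 (121245906 to 121270917, plus strand). It had 3.60, 3.03 and 3.04 CPM in siHsf1 GCN5 libraries, against 81.8, 114 and 84.0 CPM in siHsf1 LacZ libraries. Every siHsf1 GCN5 library was far below every siHsf1 LacZ library, with a log2 fold change of -4.84 ± 0.21 (SE; edgeR adjusted p = 1.25e-12). Under the control siRNA it had 1.62, 5.14 and 4.70 CPM in the GCN5 line and 8.92, 8.20 and 8.29 CPM in the LacZ line (log2 fold change -1.15; edgeR adjusted p = 0.00889). The siHsf1 mean was 84.3% of the siControl mean in the GCN5 line and 1100% in the LacZ line.

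All 10 sensors and transcription factors of the list fell, with a median log2 fold change of -2.13 (9 lower with spike-in scaling). Irf7, the factor that amplifies interferon transcription, had 14.6, 13.6 and 11.0 CPM in siHsf1 GCN5 libraries, against 169, 207 and 186 CPM in siHsf1 LacZ libraries. The groups were far apart (log2 fold change -3.84 ± 0.11, SE; edgeR, adjusted p of 5.10e-18). Zbp1, a sensor of Z-form nucleic acid, had 9.12, 10.6 and 7.26 CPM in siHsf1 GCN5 and 81.1, 95.0 and 80.7 CPM in siHsf1 LacZ libraries. Both genes were called with spike-in scaling. Ifnb1, the interferon gene itself, was too low to test: it had 0 counts over the siHsf1 GCN5 libraries and 4 counts over the siHsf1 LacZ libraries, with 0 counts in both siControl groups.

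Of 22 antiviral effectors 21 fell, with a median of -3.41 (19 lower with spike-in scaling). Without the siHsf1 LacZ libraries 18 of the 22 would have passed the filter on low counts. The others were tested only through the group where they are high, so their direction is no separate result. Ifit3, which binds foreign RNA as part of the IFIT complex, had 1.92, 5.05 and 3.74 CPM in siHsf1 GCN5 libraries, against 75.2, 99.0 and 85.9 CPM in siHsf1 LacZ libraries (log2 fold change -4.60 ± 0.21, SE; edgeR, adjusted p of 1.44e-12). Ifit1, its partner, had 25.2, 28.6 and 30.4 CPM in siHsf1 GCN5 and 182, 186 and 193 CPM in siHsf1 LacZ libraries. Ifit3b is a close copy of Ifit3, so the split of reads between them is uncertain; its log2 fold change was -4.48, and it passed the filter on low counts only through the siHsf1 LacZ libraries. The oligoadenylate synthetases, which make a second messenger of antiviral defence, were lower at Oas1a (-4.60), Oas3 (-4.47) and the related Oasl2 (-2.91). Oas3 had 2.16, 2.02 and 1.17 CPM in siHsf1 GCN5 and 40.1, 41.3 and 38.3 CPM in siHsf1 LacZ libraries. Xaf1 (-4.38), Ifi44 (-3.95), Trim30a (-3.70) and Parp14 (-2.11) fell likewise, each at an edgeR adjusted p of 1.64e-13 or less. Phf11d, outside the list but among the 12 lowest fold changes, was at -4.74.

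Genes of ISG15 handling and the interferon-induced GTPases were lower as well. All 4 tested genes of ISG15 conjugation and removal fell: the ligase Herc6 had 36.5, 36.6 and 35.3 CPM in siHsf1 GCN5 libraries, against 132, 125 and 137 CPM in siHsf1 LacZ libraries, and the conjugating enzyme Ube2l6 was at a log2 fold change of -1.97. Isg15 was not tested; it has a near-identical copy, its count was 1 over the siHsf1 GCN5 libraries and 0 over the siHsf1 LacZ libraries, and no direction is given. All 6 tested interferon-induced GTPases fell, of which 5 would have passed the filter on low counts without the siHsf1 LacZ libraries. Each of these 4 and 6 genes was called lower with spike-in scaling too. Gbp3 had 21.4, 18.4 and 15.9 CPM in siHsf1 GCN5 and 134, 131 and 129 CPM in siHsf1 LacZ libraries, while Gbp2 and Irgm1 were at -2.19 and -2.57. Iigp1 had 0 counts over the siHsf1 GCN5 libraries and 56 over the siHsf1 LacZ libraries, so it was at least 9.64-fold lower, set against 3 counts over the group. With Iigp1 at this bound the list's median stayed at -2.59.

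Antigen presentation fell in 4 of 6 tested members, with a median of -1.22 (2 lower with spike-in scaling). B2m, the light chain of class I molecules, had 250, 259 and 247 CPM in siHsf1 GCN5 libraries, against 764, 819 and 812 CPM in siHsf1 LacZ libraries (log2 fold change -1.66; edgeR adjusted p = 3.16e-16). Nlrc5, the transactivator of class I genes, was at -3.36 and already lower under the control siRNA (-1.62; edgeR adjusted p = 1.59e-05). Psmb10, an immunoproteasome subunit, was at -0.50 and was not called with spike-in scaling (edgeR adjusted p = 0.455). Of the members under the filter, Psmb8 had 1 count over the siHsf1 GCN5 libraries and 59 over the deeper siHsf1 LacZ libraries, and Tap1 had 0 and 50. Tap2 had 7 counts over the siHsf1 GCN5 and 11 over the siHsf1 LacZ libraries, and Psmb9 had 0 and 2; per depth, Tap2 was not lower in siHsf1 GCN5.

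Of the haematopoietic marker genes, Cd68 and Cd14 moved with the interferon list. The summed level of all 10 markers was 25.4 to 30.7 CPM in siHsf1 GCN5 and 51.6 to 59.3 CPM in siHsf1 LacZ libraries. It was 22.9 to 26.8 CPM in siControl GCN5 and 26.6 to 27.3 CPM in siControl LacZ libraries. In the siHsf1 libraries 7 markers stayed at or under 1 CPM. Of the 10 markers, 3 were tested: Cd68 and Cd14 were lower and Csf1r was higher, though Csf1r passed the filter only through GCN5 libraries. Their part in the interferon result was not tested. The defining markers Adgre1, Itgam, Cd3e and Tyrobp were at 0 in all 12 libraries, which allows up to 0.758 CPM in the shallowest siHsf1 GCN5 library and 0.415 CPM in the shallowest siHsf1 LacZ library (3 counts of the library, counting error only).

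Heat-shock chaperones, classic targets of HSF1, were higher or not called with 1 exception. Of 28 tested heat-shock chaperones 15 rose in siHsf1 GCN5 and 1 fell, beside 22.2% higher and 22.6% lower over all tested genes. The other 12 were not called, and the median log2 fold change was 0.26. With spike-in scaling 1 was called higher, Fkbp5, which was not called with TMM. Under the control siRNA 1 was higher and 2 were lower, with a median of -0.01, beside 5.46% higher and 4.15% lower over all tested genes. In the HSP90 group 8 of 10 rose (median 0.68). Hsp90ab1, the constitutive cytosolic HSP90, had 3068, 3047 and 3015 CPM in siHsf1 GCN5 libraries, against 1841, 1761 and 1791 CPM in siHsf1 LacZ libraries (log2 fold change 0.76; edgeR adjusted p = 3.39e-12; 0.248 with spike-in scaling). Its inducible paralogue Hsp90aa1 was at 0.67 and the co-chaperone Fkbp4 at 0.69, neither called with spike-in scaling (edgeR adjusted p = 0.365 and 0.336). The siControl means of Hsp90ab1 were 3553 CPM (GCN5) and 3331 CPM (LacZ), so both siHsf1 groups lay below them. Hsp90aa1 and Fkbp4 had means of 1085 and 263 CPM in siHsf1 GCN5, against 1313 and 331 CPM in siControl GCN5. The small heat-shock gene Hspb8 was not below its siControl GCN5 mean (161 against 156 CPM).

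Of 6 tested HSP70 and HSP110 genes 4 rose. Hspa8, the constitutive HSP70, was at 0.51, the HSP110 gene Hsph1 at 0.41 and Hspa4 at 0.34, none of them called with spike-in scaling (edgeR adjusted p = 0.580, 0.713 and 0.803). The stress-inducible Hspa1a and Hspa1b, near-identical copies, had 0 and 4 counts in sum over the siHsf1 libraries and were not tested. Of 8 HSP40 and nucleotide exchange genes 2 rose, Dnaja2 by 0.26 and Dnajc7 by 0.27, a share near the 22.2% called higher over all tested genes. Among small heat-shock proteins Hspb8 rose by 0.70 and Cryab fell by 0.62. These last 4 were not called with spike-in scaling.

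Hspd1 (HSP60, the folding chamber of mitochondria) lies on chromosome 1 (55077834 to 55088217, minus strand). It had 917, 902 and 918 CPM in siHsf1 GCN5 libraries, against 384, 347 and 391 CPM in siHsf1 LacZ libraries. The groups did not overlap and the log2 fold change was 1.29 ± 0.06 (SE; edgeR adjusted p = 8.60e-15 by TMM and 0.00537 by spike-in scaling). Under the control siRNA the lines had 988, 961 and 1003 CPM (GCN5) and 897, 997 and 950 CPM (LacZ), a log2 fold change of 0.05 that was not called. Its co-chaperonin Hspe1, which starts nearby on the other strand, was at 0.62 and had 165, 161 and 180 CPM in siHsf1 GCN5 and 101, 111 and 116 CPM in siHsf1 LacZ libraries (edgeR adjusted p = 1.90e-06; 0.421 with spike-in scaling). Trap1 (mitochondrial HSP90, 0.61; edgeR adjusted p = 0.425 with spike-in scaling) and Hspa9 also rose, which makes 4 of 9 mitochondrial chaperones, with 5 not called and a median of 0.19.

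A stretch upstream of the Hspe1 start, inside the annotated span of Hspd1, is shown because it holds the heat-shock element, searched on both strands as GAA, any 2 bases, TTC, any 2 bases and GAA or as its mirror form that starts with TTC, with the overlapping matches in capitals (RefSeq, GRCm38.p6).
Hspd1, chr1:55088019-55088116, minus strand: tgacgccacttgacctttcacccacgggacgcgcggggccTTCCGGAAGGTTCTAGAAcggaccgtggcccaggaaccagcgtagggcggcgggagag
The same bases lie upstream of Hspe1 on the other strand. Of the 2 RefSeq windows of Hspd1 the one for the inner start held these 2 matches, and the one for the outer start held 0. The motif was found in 2 of 8 mitochondrial chaperone genes with a window, Hspd1 and Hspe1, which share these same bases. It was found in 3 of 23 heat-shock chaperone genes with a window. The share was 0.542% over all tested genes with a window and 0.603% over all windows.

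The cytosolic chaperonin TRiC, which folds actin and tubulin, and its partner prefoldin had 10 of 13 tested members higher and none lower (median 0.51). All 8 TRiC subunits were among them. Cct3 had 703, 739 and 723 CPM in siHsf1 GCN5 libraries, against 412, 431 and 433 CPM in siHsf1 LacZ libraries, and Cct6a and Tcp1 were at log2 fold changes of 0.79 and 0.69. No member was called under the control siRNA, and none with spike-in scaling, where Cct3 had an edgeR adjusted p of 0.233.

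Genes that c-MYC is known to drive were mostly higher. Of 36 MYC targets 29 rose and 2 fell (median 0.65), against no rise and 2 falls under the control siRNA (median -0.01). Of 45 ribosome biogenesis genes 41 rose and 1 fell (median 0.74), against no rise and 1 fall under the control siRNA. With spike-in scaling 4 of the targets and 8 of the biogenesis genes were called higher. These lists overlap: Ncl, Npm1, Fbl, Nop56, Gnl3 and Rcl1 are in both. The targets also share members with other lists, such as Cad with nucleotide synthesis and Hspd1 with mitochondrial chaperones. The counts of these lists are thus not separate results. Ncl, the nucleolar protein nucleolin, had 1612, 1647 and 1578 CPM in siHsf1 GCN5 libraries, against 718, 715 and 739 CPM in siHsf1 LacZ libraries. The log2 fold change was 1.15 ± 0.05 (SE; edgeR adjusted p = 1.27e-14 by TMM and 0.0154 by spike-in scaling), and the levels in siControl libraries were 1561 to 1682 CPM (GCN5) and 1538 to 1678 CPM (LacZ). Dkc1, the pseudouridine synthase of small nucleolar RNPs, had 149, 136 and 143 CPM in siHsf1 GCN5 and 63.4, 56.9 and 64.6 CPM in siHsf1 LacZ libraries (log2 fold change 1.21). Mybbp1a, a nucleolar regulator of rRNA transcription, was at 1.03. The 3 genes separated the groups without overlap, as 55.3% of all tested genes did.

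Nucleotide synthesis rose in 25 of 29 genes and fell in none (median 0.50; 3 called higher with spike-in scaling). Cad, which starts pyrimidine synthesis, had 305, 313 and 315 CPM in siHsf1 GCN5 libraries, against 143, 130 and 122 CPM in siHsf1 LacZ libraries (log2 fold change 1.24; edgeR adjusted p = 1.16e-11; 0.0105 with spike-in scaling). The folate enzyme Mthfd1 (1.06) and the purine enzyme Gart (0.87) were higher as well, Gart not called with spike-in scaling (edgeR adjusted p = 0.145). In the MYC network itself 4 of 10 tested members rose (2 without siHsf1 GCN5 replicate 1) and 1 fell, none of them called with spike-in scaling. Over all tested genes 22.2% rose and 22.6% fell. Mxi1, a repressor partner of MAX, was at 0.65 and Mnt, another MAX partner, at -0.44. Neither was called with spike-in scaling (edgeR adjusted p = 0.475 and 0.559).

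Cytosolic ribosomal proteins rose in 66 of 80 genes and fell in none, with a median of 0.43 (41 of 46 of the large and 25 of 34 of the small subunit). None was called with spike-in scaling, where the median was 0.37; under the control siRNA 4 were lower and the median was -0.09. Rps23 had 651, 648 and 645 CPM in siHsf1 GCN5 and 358, 341 and 353 CPM in siHsf1 LacZ libraries, and Rps25, Rpl12 and Rpl4 were at log2 fold changes of 0.92, 0.84 and 0.75. Rps25 had an edgeR adjusted p of 0.0977 with spike-in scaling. Many ribosomal protein genes have processed copies, so single counts can be uncertain. Of 43 translation factors 29 rose and 1 fell (median 0.41), none called with spike-in scaling. Eef1a1, the elongation factor that delivers aminoacyl-tRNA, had 8347, 8484 and 8050 CPM in siHsf1 GCN5 and 4810, 4375 and 4733 CPM in siHsf1 LacZ libraries. Pabpc4 was at 0.94. Eif4g2 was at 0.84 and, unlike these, also higher under the control siRNA (0.60; edgeR adjusted p = 1.60e-08). Aminoacyl-tRNA synthetases rose in 13 of 20 genes and fell in 3 (median 0.34), with Kars, Eprs and Iars at 0.50 to 0.53 and none called with spike-in scaling.

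The authors' list of c-MYC peaks in MEFs with intact Hsf1 holds 220037 peaks over 510 Mb, so most active starts lie near one. A peak overlapped the 1000 bases on either side of the start in 80.6% of genes called higher, 78.9% of genes called lower and 75.0% of genes not called. Among genes that differed by 2-fold or more it did so in 59.7% of those higher and 66.4% of those lower, beside 77.1% of all tested genes. It did so in 44 of 45 ribosome biogenesis genes, 35 of 36 MYC targets and 33 of 48 interferon genes. These shares are descriptions, since binding was mapped in other cells than the 6 libraries and with no replicate error.

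**Figure D3:**
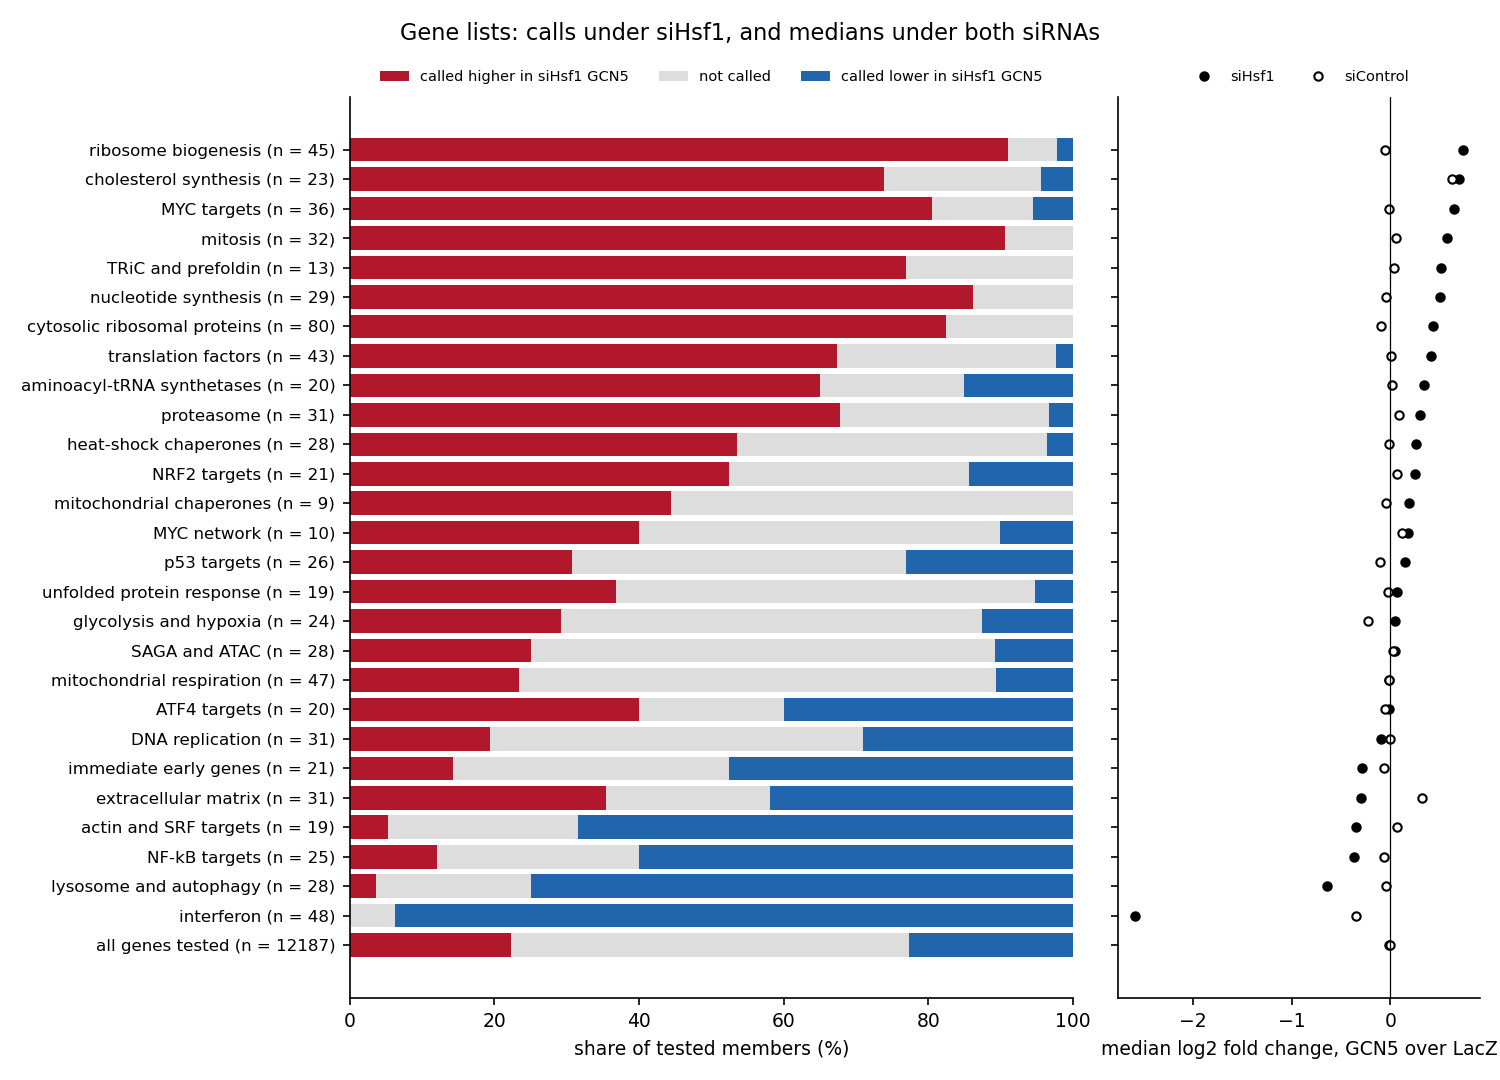
Left, share of tested members of each gene list except the HSF family called higher, not called or called lower in siHsf1 GCN5 (TMM scaling); right, median log2 fold change of GCN5 over LacZ under siHsf1 (filled) and siControl (open). Medians under siHsf1 run from -2.59 (interferon) to 0.74 (ribosome biogenesis), and cholesterol synthesis has a median near its siHsf1 value under siControl too (0.70 and 0.63).

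Mitotic genes rose in 29 of 32 cases and fell in none (median 0.57; 1 called higher with spike-in scaling). Aurka, a spindle kinase, had 113, 121 and 117 CPM in siHsf1 GCN5 libraries, against 66.7, 71.4 and 69.4 CPM in siHsf1 LacZ libraries, and Cdc20 and Bub1b of the spindle checkpoint were at log2 fold changes of 0.79 and 0.66. None of these 3 was called with spike-in scaling (edgeR adjusted p = 0.242, 0.237 and 0.385). DNA replication genes did not move together: 6 rose, 9 fell and 16 were not called (median -0.09), beside 22.2% higher and 22.6% lower over all tested genes, and none was called with spike-in scaling. The number that fell was 3 without siHsf1 LacZ replicate 2, 5 without siHsf1 GCN5 replicate 2 and 4 without siHsf1 GCN5 replicate 3. The helicase loader Cdc6 was at 0.36, the helicase subunit Mcm2 at -0.24 and the histone chaperone Chaf1b at -0.60, none of them called with spike-in scaling. Targets of p53 split as well, 8 higher and 6 lower of 26 (1 and 1 with spike-in scaling). These shares too stand beside 22.2% higher and 22.6% lower over all tested genes. Eda2r, a TNF receptor family member, had 15.8, 14.9 and 13.6 CPM in siHsf1 GCN5 and 5.51, 3.41 and 4.39 CPM in siHsf1 LacZ libraries (log2 fold change 1.74; edgeR adjusted p = 1.35e-08; 0.000385 with spike-in scaling). Ccng1 and Gtse1 were at 0.88 and 0.86 and were not called with spike-in scaling (edgeR adjusted p = 0.152 and 0.137).

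Lysosome and autophagy genes were mostly lower: 21 of 28 fell and 1 rose, with a median of -0.64 (8 lower and 1 higher with spike-in scaling). Hexa, a subunit of lysosomal hexosaminidase, had 89.5, 85.4 and 85.0 CPM in siHsf1 GCN5 libraries, against 211, 245 and 211 CPM in siHsf1 LacZ libraries (log2 fold change -1.36; edgeR adjusted p = 3.09e-12; 0.000923 with spike-in scaling). The membrane protein Lamp1 had 810, 809 and 784 CPM in siHsf1 GCN5 and 1434, 1495 and 1467 CPM in siHsf1 LacZ libraries (log2 fold change -0.87), and was not called with spike-in scaling (edgeR adjusted p = 0.0582). Under the control siRNA 5 of the list were lower and 3 higher, with a median of -0.04. The gene that rose was Gabarap, with 12.7, 66.7 and 11.0 CPM in siHsf1 GCN5 and 5.65, 7.06 and 6.83 CPM in siHsf1 LacZ libraries, so that replicate 2 stands apart in its group. Without that library the log2 fold change was 0.88, against 2.19 with it, and it was not called without siHsf1 LacZ replicate 1, 2 or 3 (edgeR adjusted p = 0.0736, 0.0657 and 0.067).

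Inflammatory and early-response genes were lower more often than higher. Of 25 NF-kB targets 15 fell and 3 rose (median -0.37; 6 lower with spike-in scaling). Saa3, an acute-phase protein, had 1.20, 1.01 and 1.64 CPM in siHsf1 GCN5 libraries, against 27.0, 27.8 and 25.2 CPM in siHsf1 LacZ libraries (log2 fold change -4.35; edgeR adjusted p = 3.49e-14). The iron-binding Lcn2 (-2.15) and the feedback inhibitor Tnfaip3 (-1.34) were lower, and Saa3 and Lcn2 were lower under the control siRNA as well (-2.43 and -1.50). Of 21 immediate early genes 10 fell and 3 rose, Myc among those that rose; with spike-in scaling 3 were lower and none higher. The phosphatase gene Dusp1 had 49.2, 58.9 and 63.2 CPM in siHsf1 GCN5 and 153, 163 and 164 CPM in siHsf1 LacZ libraries, and under the control siRNA it was higher in the GCN5 line (0.39; edgeR adjusted p = 0.00461). Klf4 and Fosl2 were at -0.94 and -0.91, Fosl2 not called with spike-in scaling (edgeR adjusted p = 0.0510). With all 92 ERCC transcripts Fosl2 was called (edgeR adjusted p = 0.0315).

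Targets of SRF and YAP that build or follow the actin cytoskeleton fell in 13 of 19 cases and rose in 1 (median -0.35; 4 lower with spike-in scaling). Cnn2, a calponin, had 181, 191 and 189 CPM in siHsf1 GCN5 libraries, against 406, 470 and 425 CPM in siHsf1 LacZ libraries. The matricellular genes Ctgf and Cyr61 were at log2 fold changes of -1.11 and -0.80, Cyr61 not called with spike-in scaling (edgeR adjusted p = 0.0866). Extracellular matrix genes split into 11 higher and 13 lower of 31, against 12 higher and 3 lower under the control siRNA; with spike-in scaling 3 were higher and 3 lower under siHsf1. Col6a2 was higher under both siRNAs (0.91 and 1.21), and Timp2, a metalloproteinase inhibitor, was at -0.75. Neither was called with spike-in scaling (edgeR adjusted p = 0.128 for both).

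Cholesterol synthesis differed from most of these lists in that the line difference was there without the knockdown. Of 23 tested genes 17 rose and 1 fell under siHsf1 (median 0.70; 5 called higher with spike-in scaling), and 18 rose and none fell under siControl (median 0.63). Cyp51, the sterol demethylase, had 76.1, 76.1 and 76.8 CPM in siHsf1 GCN5 libraries, against 32.9, 29.9 and 31.5 CPM in siHsf1 LacZ libraries, with no overlap (log2 fold change 1.28; edgeR adjusted p = 2.63e-11; 0.00735 with spike-in scaling). Under siControl it was at 0.94. Sqle, the squalene epoxidase, was at 1.10 under siHsf1 and 0.74 under siControl. The difference between the line effects was called for 3 of the 23 genes, beside 22.0% of all tested genes.

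Among the other stress and metabolic lists, NRF2 targets rose in 11 of 21 cases and fell in 3 (2 higher with spike-in scaling). The detoxifying Gsta4 had 226, 226 and 216 CPM in siHsf1 GCN5 libraries, against 87.9, 88.3 and 82.5 CPM in siHsf1 LacZ libraries, and Nqo1 was at a log2 fold change of 1.26; both were called with spike-in scaling, and Gstm1 (0.86) was not (edgeR adjusted p = 0.152). Proteasome genes rose in 21 of 31 cases and fell in 1 (median 0.30), with Psmd3 at 0.65, and none was called with spike-in scaling. ATF4 targets were divided evenly, 8 higher and 8 lower of 20 (none higher and 3 lower with spike-in scaling), with Psat1 (serine synthesis) at 0.67, Aldh18a1 (proline synthesis) at 0.70 and Nupr1 at -0.88. Genes of the unfolded protein response rose in 7 of 19 cases and fell in 1 (median 0.07; none called with spike-in scaling), with the ER chaperone Hspa5 at 0.31. Glycolysis and hypoxia genes had 7 higher and 3 lower of 24 (none higher and 2 lower with spike-in scaling), beside 22.2% and 22.6% over all tested genes. The vasoactive peptide gene Adm was at -2.27 and Pkm at 0.24. Respiratory chain genes had 11 higher and 5 lower of 47, with Sdha at 0.62, and none was called with spike-in scaling. SAGA and ATAC genes, the complexes of GCN5, had 7 higher and 3 lower of 28 (median 0.05; none called with spike-in scaling), with Eny2 at 0.50 and Sf3b3 at 0.31, and Kat2b, the paralogue of Kat2a, among the lower. In the respiratory chain list and in SAGA and ATAC the share called higher was near the 22.2% over all tested genes and the share called lower was below the 22.6%. Of the genes named in this paragraph, Adm, Gsta4 and Nqo1 were called with spike-in scaling.

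The largest positive fold changes by rule were mostly shared with the control siRNA. Ckmt1, a mitochondrial creatine kinase, had 14.4, 11.9 and 13.3 CPM in siHsf1 GCN5 libraries, against 0.413, 0.470 and 0.122 CPM in siHsf1 LacZ libraries (log2 fold change 5.22 ± 0.35, SE; edgeR, adjusted p of 1.50e-11). The homeobox genes Hoxb9 (3.59) and Hoxc4 (3.09), the chromatin remodeller Smarca1 (3.39) and LOC105242736 (3.09) followed. Under siControl these 5 genes were at 3.83, 3.51, 3.20, 4.16 and 2.81, and none of them differed between the siRNAs by the interaction test. Ckmt1 and Hoxc4 stayed under 1.74 CPM, the level of the filter on low counts, in every LacZ library. They passed the filter only through the GCN5 libraries, where they are high, so their direction is no separate result. Srsf1, a splicing factor, had 81.1, 83.6 and 83.8 CPM in siHsf1 GCN5 and 11.3, 11.8 and 10.1 CPM in siHsf1 LacZ libraries, with log2 fold changes of 2.90 under siHsf1 and 2.88 under siControl; Hnrnph3, an RNA-binding protein, was at 2.66 and 2.44. Acsbg1, an acyl-CoA synthetase (3.62 and 1.80), and the keratin Krt13 (2.24 and 0.94) were higher under both. Spag7 (4.21) was uneven, with 14.2, 18.4 and 28.6 CPM in siHsf1 GCN5 and 0.826, 0.941 and 1.46 CPM in siHsf1 LacZ libraries, and 1.08 to 25.7 CPM within the siControl GCN5 group. Omd, a small matrix proteoglycan, was the other of the 12 lowest genes outside the lists, with 0.651 ± 0.375 CPM in siHsf1 GCN5 and 16.1 ± 3.60 CPM in siHsf1 LacZ libraries (SD, n = 3 each). It passed the filter on low counts only through the siHsf1 LacZ libraries. Fabp4, a fatty acid carrier among the adipocyte markers, had 0 counts over the siHsf1 GCN5 libraries and 77 over the siHsf1 LacZ libraries, at least 13.3-fold lower against 3 counts over the group.

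The line difference under siHsf1 was set against that under siControl, where 665 genes were higher (5.46%) and 506 lower (4.15%) in the GCN5 line. Of the genes called under siControl 76.0% were also called under siHsf1, and of those called under siHsf1 16.3% were also called under siControl; the 2 comparisons share no library. Among the 890 genes called in both, 833 had the same direction (462 higher, 371 lower) and 57 the opposite. The difference between the line effects was called for 2677 genes (22.0%), 1341 positive and 1336 negative, and 2450 of these were also called under siHsf1. With spike-in scaling 48 genes were called by that test. The median over all tested genes was then -0.40 under siControl and 0.32 for the difference, against -0.00 and -0.02 with TMM.

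The genes with the largest positive difference between the line effects were higher in the GCN5 line under siHsf1 and lower or not called under siControl. Reep6, an ER membrane-shaping protein, had 5.88 ± 0.282 CPM in siHsf1 GCN5 libraries, against 2.39 ± 0.682 CPM in siHsf1 LacZ libraries (SD, n = 3 each). Under siControl the order was the other way, with 6.09 ± 0.961 CPM in GCN5 and 12.9 ± 1.77 CPM in LacZ libraries (SD, n = 3 each), a difference between the effects of 2.37 (edgeR adjusted p = 8.20e-06). Eda2r followed at 2.13, the junction protein Ppl at 1.99, Gm3776 at 1.91 and the protease-activated receptor F2rl1 at 1.83. Gm3776 belongs to the glutathione S-transferase family, whose members share sequence, and its count is uncertain. Under siHsf1 some of these calls rest on single libraries: F2rl1 (0.79) was called only with all 6 libraries or without siHsf1 LacZ replicate 3, Gm3776 (1.11) was not called without siHsf1 GCN5 replicate 1 (0.91) or siHsf1 LacZ replicate 3 (0.97), and Ppl (0.97) was not called without siHsf1 GCN5 replicate 3 (0.73). Without a library F2rl1 lay at 0.60 to 0.82 where it was not called. The most negative were Phf11d (-4.53), Ifit3 (-4.43), Ifit3b (-4.17), Ifi44 (-3.90) and Omd (-3.85). In each of these 5 genes the siHsf1 LacZ libraries stood above the other 3 groups, and Ifit3b and Omd were tested only because of those libraries.

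**Figure D4:**
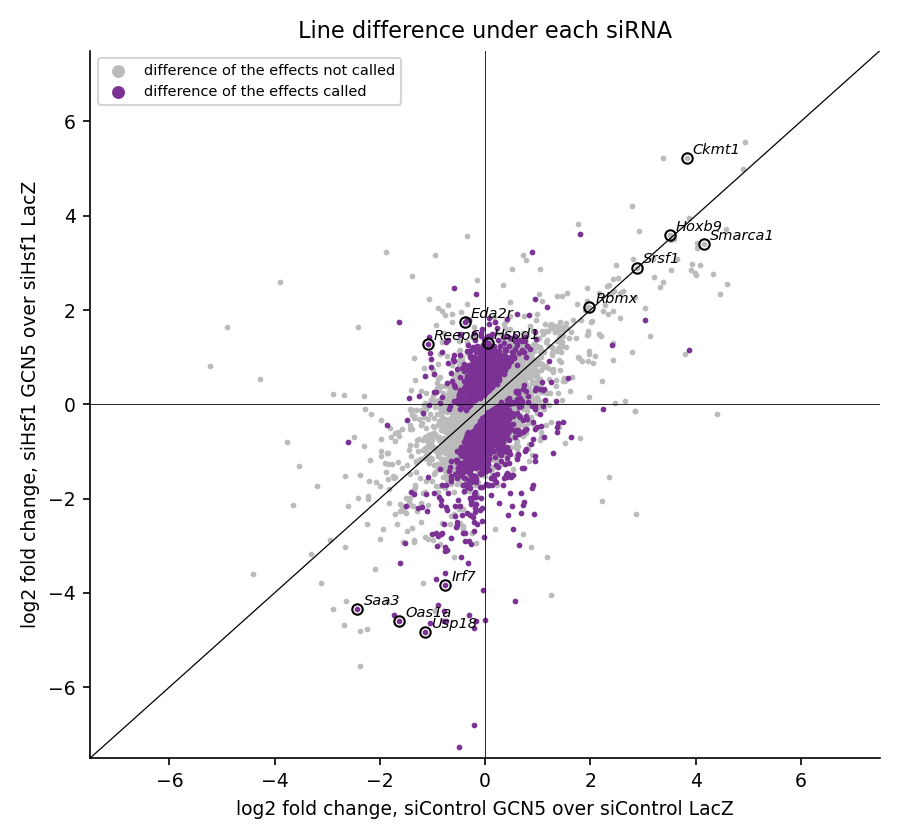
Log2 fold change of GCN5 over LacZ under siHsf1 (vertical) against that under siControl (horizontal) for 12187 genes; purple points are the 2677 whose line effect differed between the siRNAs, and the diagonal marks equal effects. Srsf1, Rbmx and Hoxb9 lie near the diagonal, whereas Hspd1 lies at 1.29 against 0.05 and Irf7 at -3.84 against -0.76.

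Choice of scaling decided many calls of moderate size. Of the 124 genes named by rule, 68 were no longer called with spike-in scaling by subgroup B and 64 with all 92 ERCC transcripts, and none changed direction. The siHsf1 fold changes themselves moved little, while the standard errors of all 124 but Gabarap grew. Kat2a was at 1.00 ± 0.06 with TMM and 0.93 ± 0.32 with spike-in scaling (SE). For the siControl line effect the median over all tested genes moved from -0.00 with TMM to -0.40 with subgroup B. Depth was not matched between the lines; with libraries thinned to one depth 4846 genes were called, 2436 higher and 2410 lower.

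**Figure D5:**
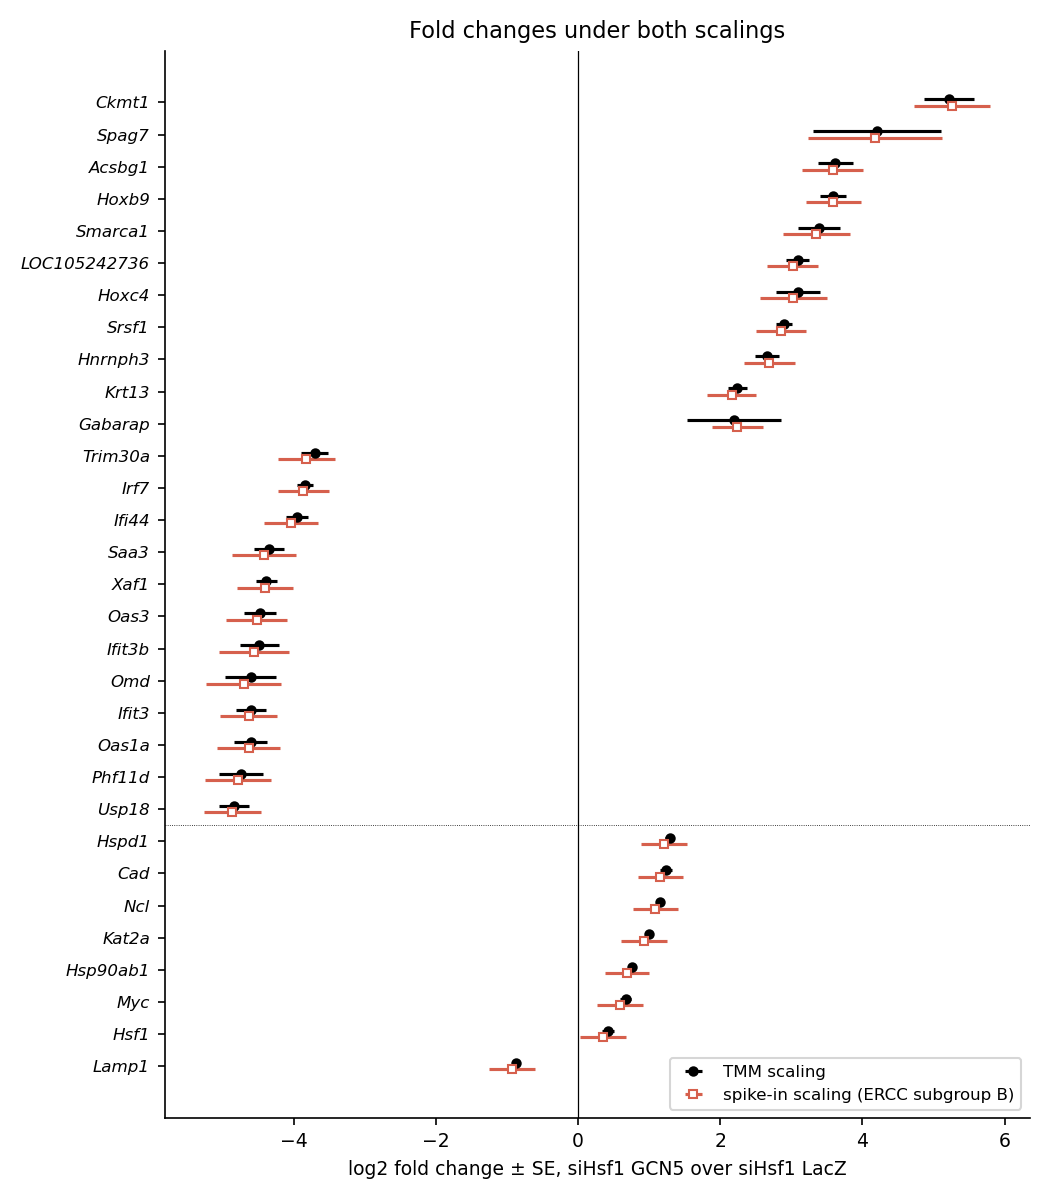
Log2 fold change ± SE of siHsf1 GCN5 over siHsf1 LacZ for 11 of the 12 highest genes and the 12 lowest genes by rule (above the dotted line) and 8 genes of the lists (below), with TMM scaling (black circles) and spike-in scaling (open red squares). The points stay close while the error bars of all genes but Gabarap widen, and Kat2a, Myc, Hsf1, Hsp90ab1 and Lamp1 were not called with spike-in scaling.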

How the data were processed

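RNA of 12 libraries was read from a deposited table of whole-number counts per gene that the authors made from reads mapped with HISAT2 on GRCm38, per the submitters' processing notes. The labels name neither the counting program nor the strandedness, so genes that overlap on opposite strands cannot be told apart. The c-MYC peaks were called by the authors with SEACR after Bowtie2, per the submitters' processing notes; the deposited signal (summed coverage) and score (maximal coverage) of each peak were not used, only its position. ERCC mix 1 was added to siControl and mix 2 to siHsf1 RNA, per the labels' protocols.

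Counts of 41608 genes were filtered with filterByExpr (minimum count 10), which left 12187. edgeR 4.0.16 in R 4.3.3 fitted 4 group means (robust quasi-likelihood, TMM scaling, 8 residual degrees of freedom). Contrasts were the line effect under each siRNA and their difference, each two-sided with Benjamini-Hochberg adjustment over all tested genes. Spike-in scaling used the sum of 23 ERCC transcripts of subgroup B, listed from general knowledge, or all 92. CPM are counts per M TMM-scaled counts. A count of 0 allows up to 3 counts of a library (0.368 to 0.758 CPM in the siHsf1 libraries), counting error only. The procedure was tested on simulated data. Alternatives included DESeq2 1.42.0.

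The members, the 28 gene lists and the tests were chosen with earlier results of these data known. Lists are described by counts and medians and were not tested. The rule named Kat2a, Hsf1, Myc, Usp18 and Hspd1; the 12 largest changes each way among called genes that code for protein, average 2 or more in log2 CPM and have groups that do not overlap; up to 3 called members with the smallest p of each list or role; the 5 largest each way for the difference of effects; and every HSF family member. Other genes, such as Fabp4, Iigp1, Ifnb1 and Cd68, were named after their values were seen. Some genes that the rule picked are not reported here. Same-numbered libraries did not deviate together (correlations of -0.02, 0.07 and 0.01), so samples were not treated as paired.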

Additional observations from a re-analysis of the deposited data

Results flagged for a closer look

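For 107 of the 124 named genes the line effect under siHsf1 differed from that under siControl by the interaction test of edgeR (adjusted p under 0.05), 65 with a positive and 42 with a negative difference. The values below are the siHsf1 line effect minus the siControl line effect, on the log2 scale, with 3 libraries in each of the 4 groups. With spike-in scaling this test called 48 genes in all, and the median difference over all tested genes was 0.32, against -0.02 with TMM. The sign of the smaller TMM values below can thus depend on the scaling. No explanation is weighed for any of these genes.

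Among interferon genes the differences were all negative. The sensors and factors were Irf7 (-3.08) and Zbp1 (-2.79). The effectors were Ifit3 (-4.43), Ifit3b (-4.17), Ifi44 (-3.90), Xaf1 (-3.59), Oas1a (-2.96), Trim30a (-2.77), Oas3 (-2.74), Oasl2 (-2.61), Ifit1 (-2.35) and Parp14 (-1.93), with Phf11d, outside the interferon list, at -4.53. For ISG15 removal and conjugation they were Usp18 (-3.70), Ube2l6 (-1.80) and Herc6 (-1.67), for GTPases Gbp3 (-2.80), Irgm1 (-2.04) and Gbp2 (-2.00), and for antigen presentation Nlrc5 (-1.74), B2m (-1.36) and Psmb10 (-0.61).

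Chaperones had mostly positive differences: Hspd1 (1.23), Cct6a (0.74), Cct3 (0.71), Fkbp4 (0.71), Hspb8 (0.68), Hsp90ab1 (0.67), Hsp90aa1 (0.66), Trap1 (0.66), Tcp1 (0.64), Hspe1 (0.60), Hspa8 (0.52), Hsph1 (0.44), Hspa4 (0.39) and Dnaja2 (0.27), with Cryab at -0.34. The targeted gene Hsf1 itself was at 0.41 and Kat2a at 0.81. Growth genes were positive as well, with Dkc1 (1.35), Ncl (1.14), Cad (1.09), Mybbp1a (1.08), Mthfd1 (1.08), Gart (0.97), Myc (0.88) and Mxi1 (0.65), ribosomal proteins Rps25 (0.98), Rps23 (0.95), Rpl12 (0.95), Rpl4 (0.70), Rpl5 (0.64) and Rpsa (0.64), translation factors Pabpc4 (0.90), Eef1a1 (0.74) and Eif4g2 (0.24) and tRNA synthetases Iars (0.61), Eprs (0.47) and Kars (0.42). Mnt was at -0.68.

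In the cell cycle and p53 lists the values were Eda2r (2.13), Ccng1 (1.07), Gtse1 (0.88), Aurka (0.81), Cdc20 (0.61), Bub1b (0.55), Mcm2 (-0.26) and Chaf1b (-0.42). Stress and metabolic genes stood at Gsta4 (1.13), Gstm1 (0.93), Nqo1 (0.64), Psat1 (0.70), Aldh18a1 (0.60), Hyou1 (0.31), Hspa5 (0.25), Sqle (0.36), Psmd3 (0.39), Psmd12 (0.36), Psmd1 (0.30), Cycs (0.51), Sdha (0.41), Ndufs1 (0.34), Pfkm (0.33), Pkm (0.31) and Sf3b3 (0.25). Lower were Adm (-1.17) and Nupr1 (-1.16).

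Lysosomal, inflammatory, early-response, actin and matrix genes were negative: Hexa (-1.18), Lamp1 (-0.67), Saa3 (-1.91), Tnfaip3 (-1.15), Lcn2 (-0.66), Dusp1 (-1.87), Klf4 (-0.74), Fosl2 (-0.45), Cnn2 (-0.97), Ctgf (-0.74), Cyr61 (-0.46), Timp2 (-0.74) and Col6a2 (-0.30). Of the other genes named for large changes and outside the lists, Omd was at -3.85, and those with positive values were Reep6 (2.37), Ppl (1.99), Gm3776 (1.91), F2rl1 (1.83), Acsbg1 (1.82) and Krt13 (1.29).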

How the results depend on the processing

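With spike-in scaling by ERCC subgroup B the number of called genes was 663 under siHsf1, 183 under siControl and 48 for the difference of the line effects, and with all ERCC transcripts 743 under siHsf1. Of the 124 named genes 68 lost their call with subgroup B and 64 with all transcripts, and the counts of 27 of 28 lists moved. Under DESeq2 size factors, total counts, the DESeq2 Wald test (4633 genes under siHsf1), no filter, a stricter filter, the 6 libraries alone (5643) and thinning to one depth (4846), counts of called genes stayed within 1.5-fold, and at most 3 of 124 named genes changed their side of the threshold in any of them; with no filter 1 list moved, DNA replication, with 4 lower. Leaving out 1 library gave 4710 to 4974 genes under siHsf1, 805 to 1310 under siControl and 2142 to 2807 for the difference. Hsf2, not called, ranged from -0.13 to 0.00. The spike-in share ratio of 0.96 ranged from 0.82 to 1.17, the highest without siHsf1 LacZ replicate 2.

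With a replicate block, in which libraries of the same number are paired, 5590, 1261 and 2854 genes were called and no named gene changed its call. Depth limits low genes most: the GCN5 libraries hold fewer counts, and a difference near the limit of 0.702 to 0.758 CPM for a count of 0 was not detectable there.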

Other observations

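The Hox genes, which set positional identity along the body axis and keep their pattern in cultured fibroblasts, differed between the lines in part; they were looked up after their values were seen. Of the 39 genes counted, 22 were tested, and 10 were higher and 4 lower in siHsf1 GCN5, with 8 not called, beside 22.2% higher and 22.6% lower over all tested genes. The same 10 were higher in siControl GCN5 (Hoxa5, Hoxb5, Hoxb6, Hoxb9, Hoxc4, Hoxc6, Hoxc9, Hoxc10, Hoxd10 and Hoxd11), where Hoxa10 was lower, beside 5.46% higher and 4.15% lower over all tested genes. Of these, Hoxb5, Hoxb6, Hoxc4, Hoxc6, Hoxc9 and Hoxc10 stayed under 1.74 CPM, the level of the filter on low counts, in every LacZ library. They were tested only through the GCN5 libraries, where they are high, so their direction is no separate result under either siRNA. Hoxd10 had 39.8, 38.9 and 31.4 CPM in siHsf1 GCN5 libraries, against 9.64, 9.06 and 9.14 CPM in siHsf1 LacZ libraries (log2 fold change 1.98; edgeR adjusted p = 9.66e-12), and was at 2.25 under siControl. All 10 were called higher with spike-in scaling, and the 4 lower genes (Hoxa10, Hoxa11, Hoxd8 and Hoxd13) were not called with it. The difference between the line effects was called for Hoxa9 alone.

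Splicing factors of the SR and hnRNP families were also looked up after their values were seen. They were higher in siHsf1 GCN5 in 7 of 10 and 16 of 21 tested cases, with none lower. Under siControl 2 and 8 were higher, and Hnrnpf was lower. Over all tested genes 22.2% were higher under siHsf1 and 5.46% under siControl. With spike-in scaling 1 and 3 were higher under siHsf1. Rbmx, an X-linked hnRNP, had 125, 123 and 133 CPM in siHsf1 GCN5 libraries, against 31.0, 31.5 and 28.9 CPM in siHsf1 LacZ libraries (log2 fold change 2.06; edgeR adjusted p = 3.16e-16), and was at 1.98 under siControl. Hnrnpd was at 1.11 and 1.05, and Hnrnph1 at 0.99 and 0.89. Several of these genes have near-identical copies, so their counts are uncertain. Hnrnpu was too uneven to call, with 269, 278 and 89.2 CPM in siHsf1 GCN5 and 230, 7.76 and 68.4 CPM in siHsf1 LacZ libraries.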
